A study of Mus musculus with 23 samples.

Results

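The E14 embryonic stem cell line DCTCF1 was compared with wild type E14 cells by 5C, an assay that captures ligated contacts between restriction fragments of a chosen region. The libraries were chosen by their titles: 2 of DCTCF1 and 2 of wild type, 4 of the 23 samples in the series. E14 is an established mouse embryonic stem cell (ESC) line. Both groups were grown in GMEM-based stem cell medium, fixed with formaldehyde and digested with HindIII. The line name refers to CTCF, and the sources used here give neither the coordinates of the DCTCF1 site nor the number of clones behind the line. The remaining ESC libraries of the series, 10 from the 5 lines DCTCF2, DCTCF3, DCTCF4, DCTCF5 and D35, entered the same fit to estimate the spread and served as a second reference. D35 is named for a deletion, and each of these lines has 2 libraries. Embryo samples were not used here. The cell type cannot be checked against markers, because 5C reads DNA contacts and not expression.

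CTCF is a DNA-binding protein that halts the cohesin complex as it extrudes loops of chromatin. Sites bound by CTCF in this way often mark the borders of topologically associating domains, stretches within which DNA contacts itself more often than its surroundings. Shh encodes the secreted signal Sonic hedgehog, which patterns the limb, neural tube and other tissues, and its enhancers are spread over a long gene desert. In RefSeq, the protein-coding genes around it follow each other in the order En2, Cnpy1, Rbm33, Shh, Rnf32, Lmbr1, Nom1, Mnx1, Ube3c and Dnajb6.

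The deposited matrices cover 28.317 to 29.997 Mb of chromosome 5 (mm9) in 80 bins of 21 kb, numbered here from 0. Bins 25, 29 and 64 hold no values. A left domain was taken as bins 0 to 20, a central domain as bins 22 to 64, which is the Shh domain, and a right domain as bins 66 to 79. The left boundary, bin 21, lies at 28.758 to 28.779 Mb and the right boundary, bin 65, at 29.682 to 29.703 Mb. Contact values carry no stated unit. Totals over pairs at least 2 bins apart lay between 48278.7 and 48797.3 in all 14 ESC libraries, so they say nothing of sequencing depth, which is unknown. Each library was scaled to a common total, and a contact value below is a mean of scaled values.

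None of the 4 libraries had a bin pair at 0, so the DCTCF1 deletion left no empty bin at this resolution and could not be located from the matrices. About 35% of pairs held the value of the neighbouring bin (34.8% in DCTCF1 replicate 1), and neighbouring bins are therefore not independent. Between bins 20 and 21 the values were equal for 29.9% of partners, between bins 18 and 19 for 71.4%, and between bins 21 and 22 for 0%. Run labels put 1 library of each group in an earlier year and 1 in the next, which allows a comparison within each run year. The second library of each group carries the mark "rpt" in its run label, whose meaning is not given. Titles call all 4 libraries biological replicates, and the p-values measure only the spread between such libraries.

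Bin 21, the left boundary, lost contact with the Shh domain in DCTCF1. Its mean contact value with the central domain was 19.7 and 21.3 in the wild type libraries and 13.8 and 14.0 in the DCTCF1 libraries. Both DCTCF1 libraries lay below both wild type libraries. The DCTCF1 level was 0.68 times that of wild type, a log2 change of -0.56 ± 0.10 (SE, n = 2 each, limma, adjusted p = 0.0146). Among 231 values of a bin with a domain, 4 fell (1.73%) and 2 rose (0.866%), and this was the one with the smallest p. With the observed over expected matrices 8 fell and 2 rose, and with libraries scaled by their median 8 fell and 1 rose. Contact of bin 21 with the right domain, beyond the second boundary, also fell. Its values were 16.9 and 13.6 in wild type and 10.8 and 10.3 in DCTCF1, a log2 change of -0.53 ± 0.12 (adjusted p = 0.0268). These groups did not overlap either. With the left domain, bin 21 had contact values of 31.4 and 32.6 in wild type and 35.1 and 33.6 in DCTCF1. This log2 difference of 0.10 ± 0.10 did not pass (adjusted p = 0.674).

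Lower pairs of bin 21 were spread along the Shh domain. Of the 39 pairs of bin 21 with central bins, both DCTCF1 libraries were below both wild type libraries at 33 and above them at 0. Over all 2853 pairs tested, the DCTCF1 libraries were lower in this sense at 15% and higher at 31.9%. Counted along the domain, the lower pairs were 10 of 12 with bins 23 to 36, 13 of 14 with bins 37 to 50 and 10 of 13 with bins 51 to 63. The median log2 changes of these stretches were -0.47, -0.37 and -0.33. With the right domain, 11 of 14 pairs of bin 21 were lower and 0 higher. With the left domain, 0 of 20 were lower and 5 higher.

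**Figure D1:**
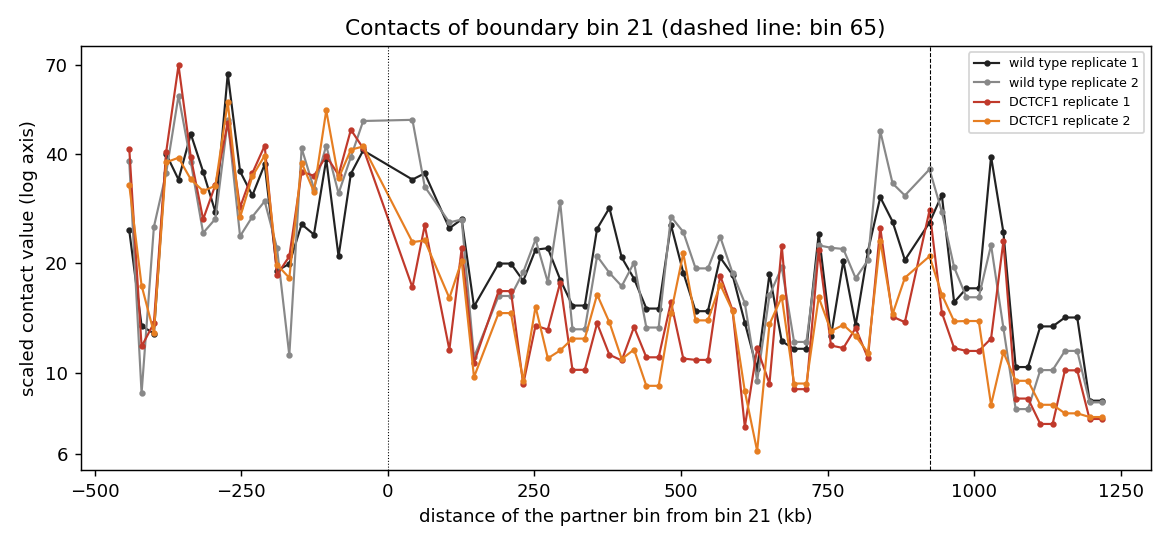
Scaled contact value of bin 21 (log axis) against the distance of its partner bin in kb, with 1 line for each of the 2 wild type and 2 DCTCF1 libraries. To the right of bin 21 the DCTCF1 lines run below the wild type lines for most of the Shh domain (33 of 39 pairs), while to the left the lines cross.

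Contact of bin 21 with the central domain was 19.8 to 27.5 in the 10 libraries of the other lines, with a median of 22.5. Both DCTCF1 libraries lay below all of them. Against the mean of the other 5 lines, a contrast that uses no wild type library, the log2 difference was -0.71 ± 0.08 (limma, adjusted p = 3.45e-05). In this contrast 4.76% of the 231 values were lower and 19.9% higher. Contact of bin 21 with the right domain was 12.7 to 19 in those libraries, and DCTCF1 differed from their mean by -0.58 ± 0.09 (adjusted p = 0.000886).

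The direction balance is the log2 ratio of a bin's contact with the 10 bins after it to that with the 10 before it. For bin 21 it describes the same shift from part of the same pairs and libraries, so it is not separate support. At bin 21 the balance was -0.27 and -0.40 in wild type, so this boundary contacted the left side only slightly more than the Shh side. It was -1.11 and -1.10 in DCTCF1. The change of -0.77 ± 0.12 (adjusted p = 0.000859) was the one with the smallest p among 54 bins, of which 2 fell (3.7%) and 0 rose (0%), with 8 at an unadjusted p under 0.05. It was -0.84 between the libraries of the earlier run year and -0.70 between those of the later. Libraries of the other lines ran from -0.55 to 0.14, above both DCTCF1 libraries, and the difference from their mean was -0.80 ± 0.09 (adjusted p = 3.01e-05). In that contrast 3.7% of bins were lower and 1.85% higher. The change at bin 21 passed the threshold in each of the 12 alternatives tried, which included leaving out each library in turn.

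Bin 22 (28.779 to 28.800 Mb), the first bin of the Shh domain, shifted the same way. Its balance was 0.85 and 0.95 in wild type and 0.47 and 0.24 in DCTCF1, a change of -0.55 ± 0.14 (adjusted p = 0.036). All 4 values were above 0, so bin 22 still had more contact with the Shh side in DCTCF1. This call held in 5 of 12 alternatives, and without DCTCF1 replicate 2 the change was -0.44 (adjusted p = 0.416). Contact of bin 22 with the right domain was 12.2 and 9.06 in wild type and 7.43 and 7.32 in DCTCF1, a fall of -0.51 ± 0.13 on the log2 scale (adjusted p = 0.0418). Without wild type replicate 1, the higher of the pair, that change was -0.30 (adjusted p = 0.186). Its contact with the central domain was 22 and 19 in wild type and 17.5 and 17.0 in DCTCF1, and the difference of -0.25 ± 0.12 did not pass (adjusted p = 0.258). With the left domain the wild type values of bin 22, 24.9 and 15.6, enclosed the DCTCF1 values of 20.3 and 20.1.

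**Figure D2:**
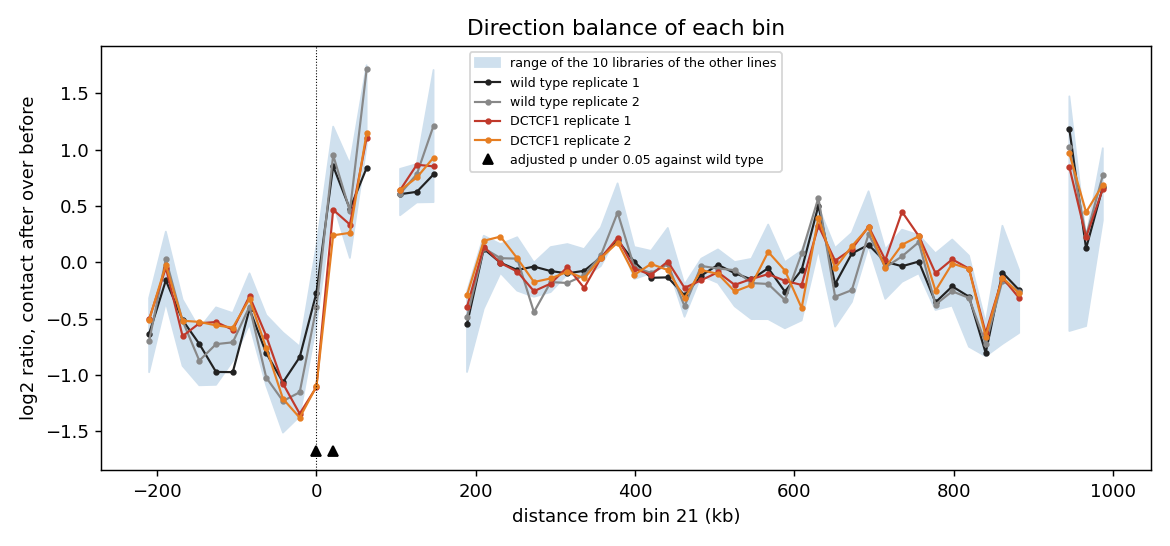
Direction balance of each tested bin (log2 ratio, contact with the 10 bins after over the 10 bins before) against its distance from bin 21 in kb, for the 2 wild type and 2 DCTCF1 libraries, with the range of the 10 libraries of the other lines shaded and called bins marked by triangles. At bin 21 the DCTCF1 libraries (-1.11 and -1.10) lie below the shaded range, whose lower edge is -0.55.

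The bins before the boundary differed less. At bin 20 (28.737 to 28.758 Mb) the balance was -0.84 and -1.15 in wild type and -1.35 and -1.38 in DCTCF1, a difference of -0.36 ± 0.14 that did not pass (adjusted p = 0.219). Contact of bin 20 with the central domain was 16.0 and 15.5 in wild type and 13.6 and 13.8 in DCTCF1 (-0.20 ± 0.10, adjusted p = 0.254). Its pairs with central bins were lower at 16 of 40 and higher at 3. At bin 19 (28.716 to 28.737 Mb) the balance overlapped between groups, with a difference of 0.00 ± 0.12 (adjusted p = 0.975). Contact of bin 19 with the central domain was 8.48 and 7.92 in wild type and 9.82 and 9.34 in DCTCF1, a difference of 0.22 ± 0.14 that did not pass (adjusted p = 0.382). Pairs of bin 19 with central bins were higher at 20 of 40 and lower at 0. Over all pairs of left with central bins, 58.5% were higher and 5.24% lower.

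At the right boundary, bin 65, the balance could be tested only with the D35 libraries left out, since a D35 library held 0 on one side of the ratio. This alternative was chosen after the data were seen. The balance of bin 65 was 0.58 and 0.73 in wild type and 0.17 and 0.13 in DCTCF1. The change of -0.51 ± 0.11 passed (limma, adjusted p = 0.0146), and the groups did not overlap. In this alternative 3 of 55 bins fell and 0 rose. Leaving out single wild type or DCTCF1 libraries was not tried for bin 65.

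Contact across the left boundary rose in DCTCF1 although bin 21 itself lost contact with the central and right domains. The block of left with central pairs had a mean contact value of 9.85 and 9.03 in wild type and 11.4 in each DCTCF1 library. The log2 change was 0.27 ± 0.09 (adjusted p = 0.0294), and it was 1 of 6 blocks to rise (16.7%), with 0 lower (0%). This change did not pass with the replicate number as a block. Without wild type replicate 2, the lower of the pair, it was 0.21 (adjusted p = 0.276), and with libraries scaled by their median it was 0.12 (adjusted p = 0.122). Of the 840 pairs in this block, both DCTCF1 libraries were above both wild type libraries at 58.5% and below them at 5.24%. Over all 2853 pairs these shares were 31.9% and 15%. The other lines had block values of 8.35 to 10.4, and DCTCF1 exceeded their mean by 0.31 ± 0.07 on the log2 scale (adjusted p = 0.000738). In that contrast 16.7% of the blocks were higher and 0% lower.

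None of the other blocks passed against wild type. Contact within the Shh domain was 23.9 and 25.7 in wild type and 23.4 and 23.2 in DCTCF1, a log2 difference of -0.09 ± 0.08 (adjusted p = 0.622). Contact within the left domain was 44.0 and 42.6 in wild type and 41.3 and 41 in DCTCF1 (-0.07 ± 0.07, adjusted p = 0.622). The left with right, central with right and right with right blocks differed by 0.02 ± 0.10, 0.06 ± 0.09 and -0.04 ± 0.08. In the corner where the ends of the Shh domain meet (bins 22 to 26 with bins 59 to 63), 6 of 20 pairs were higher (30%) and 6 lower (30%). Over all pairs within the central domain these shares were 20.5% and 23.7%, and over all 2853 pairs 31.9% and 15%.

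Higher contact with the left domain was spread over the bins of the Shh domain. Of 40 central bins, 38 had a difference above 0 in contact with the left domain, with a median of 0.30 on the log2 scale against 0.06 over all 231 values. With median scaling the count was 34 of 40 and the median 0.15. At 36 of them both DCTCF1 libraries were above both wild type libraries, 2 of the 40 rose in the test and 26 had an unadjusted p under 0.05. Over all 231 values, 142 differences were above 0 and 94 had both DCTCF1 libraries above both wild type libraries. Of the 231, 46 had an unadjusted p under 0.05. Some neighbouring bins share their values, so these counts are not of independent bins. Seen from the left domain, 20 of 21 bins had a difference above 0 in contact with the central domain. The exception was bin 20, next to the boundary, and the median was 0.31 (0.16 with median scaling). None of these 21 passed the test, and 11 had an unadjusted p under 0.05.

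The 2 central bins that rose with the left domain were bins 24 and 52. Contact of bin 24 (28.821 to 28.842 Mb) with the left domain was 15.5 and 15.3 in wild type and 23.5 and 22.7 in DCTCF1, 1.5 times the wild type level (0.58 ± 0.12, adjusted p = 0.0171). It was above the 14.6 to 21.3 of the other lines. Of its 21 pairs with left bins, 16 were higher (76.2%) and 1 lower (4.76%), against 58.5% and 5.24% of all left with central pairs. Contact of bin 52 (29.409 to 29.430 Mb) with the left domain was 9.42 and 9.12 in wild type and 13.6 and 13.1 in DCTCF1 (0.53 ± 0.13, adjusted p = 0.0463). The other lines had 7.81 to 10.8. For both bins the wild type and DCTCF1 libraries did not overlap, and the changes were 0.59 and 0.57 for bin 24 and 0.53 and 0.53 for bin 52 in the first and the second run year. With the central domain neither bin differed in the test (-0.03 and -0.01).

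**Figure D3:**
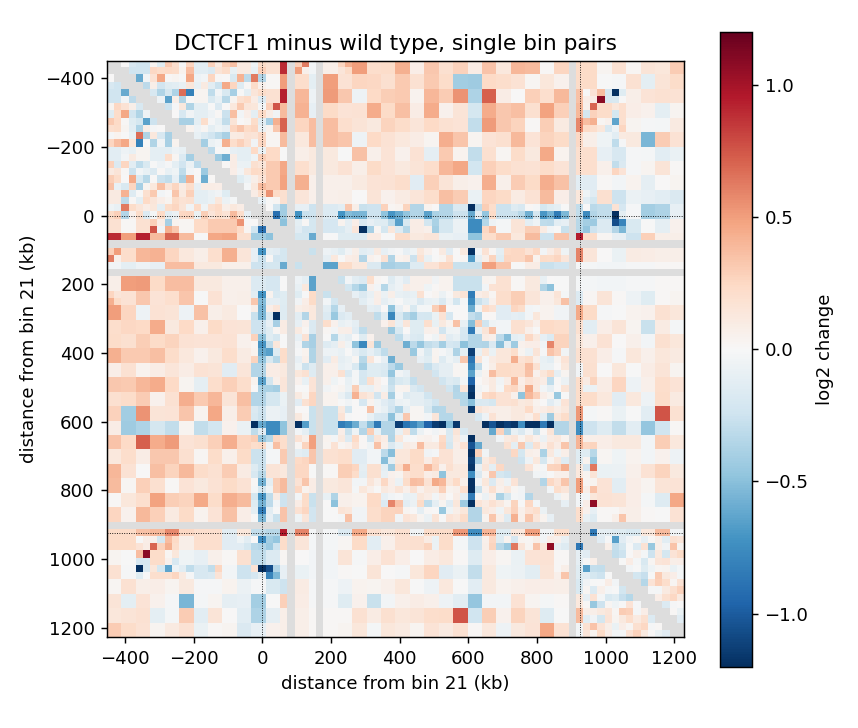
Log2 change of each bin pair, DCTCF1 minus wild type (colour), with both axes as distance from bin 21 in kb, dotted lines at bins 21 and 65 and grey for pairs without a value. Blue stripes mark bin 21 towards the Shh and right domains and bin 50 within the Shh domain. The left with central block is mostly red. Both DCTCF1 libraries were above both wild type libraries at 58.5% of its pairs, against 31.9% of all pairs.

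By distance, the rise across bin 21 passed among the longest contacts. Pairs that cross only bin 21 at 40 to 79 bins apart had contact values of 9.49 and 9.08 in wild type and 11.4 in each DCTCF1 library, a log2 change of 0.30 ± 0.08 (adjusted p = 0.0305). It was 1 of 18 distance classes to rise (5.56%), with 0 lower (0%). At 20 to 39 bins the difference was 0.29 ± 0.09 (adjusted p = 0.0687), and at 5 to 9 bins it was 0.31 ± 0.12 (adjusted p = 0.101). It was smaller at 10 to 19 bins, with 0.18 ± 0.10 (adjusted p = 0.25). Without wild type replicate 2 the call at 40 to 79 bins was lost (0.26, adjusted p = 0.255), and with median scaling the change was 0.15 (adjusted p = 0.128). Contact within the Shh domain at 2 to 4 bins differed by -0.23 ± 0.09 (adjusted p = 0.101). Within the left and the right domain it differed by -0.18 ± 0.07 (adjusted p = 0.101) and -0.11 ± 0.08 (adjusted p = 0.392). The slope of log2 contact on log2 separation, from 2 to 60 bins, was -0.54 and -0.60 in wild type and -0.51 and -0.50 in DCTCF1. An exact permutation test, two-sided, gave p = 0.333, the smallest that 2 against 2 libraries allow, and the other lines ran from -0.65 to -0.50.

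The insulation value, log2 of the mean contact between the 5 bins before and the 5 bins after a bin relative to the library mean, rose on the left flank of the boundary. A higher value means more contact across the bin. At bin 19 it was -0.33 and -0.40 in wild type and -0.04 and -0.00 in DCTCF1, and at bin 20 it was -0.63 and -0.86 in wild type and -0.39 and -0.38 in DCTCF1. The changes were 0.35 ± 0.07 at bin 19 (adjusted p = 0.0079), 0.36 ± 0.10 at bin 20 (adjusted p = 0.0364) and 0.24 ± 0.07 at bin 18 (adjusted p = 0.0364). Of 70 bins, 6 rose (8.57%) and 0 fell (0%), with 20 at an unadjusted p under 0.05. Windows of neighbouring bins share pairs, so these 3 calls are not independent. At bin 21 itself the value was -0.95 and -1.36 in wild type and -0.85 and -0.89 in DCTCF1, which did not pass (0.28 ± 0.10, adjusted p = 0.104). At bin 22 the groups overlapped, with a difference of -0.06 ± 0.10 (adjusted p = 0.63).

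In DCTCF1 the profile was still low at the boundary. Bins 21 and 22 stood at -0.85 and -0.88 in replicate 1 and at -0.89 and -0.98 in replicate 2, so in both libraries bin 22 was the lower of the pair. In both wild type libraries bin 21 was the lower, with -0.95 against -0.79 and -1.36 against -0.95. The remaining insulation calls lay near the right end of the Shh domain, at bins 60, 61 and 62 (29.577 to 29.640 Mb). Bin 60 was at -0.22 and -0.13 in wild type and 0.10 and 0.09 in DCTCF1, a rise of 0.27 ± 0.07 (adjusted p = 0.0356). Bins 61 and 62 rose by 0.24 each (adjusted p = 0.0461 and 0.0479). The values of DCTCF1 at these 3 bins lay within the range of the other lines.

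Against the mean of the other 5 lines, insulation values were higher at 17 of 70 bins (24.3%) and lower at 20 (28.6%). Bins 18 to 21 were all higher in DCTCF1, by 0.28, 0.37, 0.44 and 0.40 (adjusted p of 0.000735, 0.000203, 0.00068 and 0.000967). At bins 19 to 21 each DCTCF1 library was above all 10 libraries of the other lines. At bin 18 the highest of the other lines was -0.04, between the DCTCF1 values of -0.07 and -0.01. In the middle of the Shh domain, DCTCF1 was lower than the other lines at bins 44, 45, 46, 49 and 51 (-0.26, -0.35, -0.29, -0.31 and -0.27). These bins were named by smallest p. Lower calls there also included bins 40 to 43, 47, 48, 52, 53 and 55, with -0.34 at bin 47. Against wild type the differences at the named bins ran from -0.18 at bin 46 to -0.07 at bin 44. Those at bins 47 and 52 were larger in size (-0.24 each, adjusted p = 0.118 and 0.104), and none passed. Bin 74, in the right domain, was higher than in the other lines by 0.28 ± 0.05 (adjusted p = 0.000735). DCTCF1 replicate 1, at 0.07, lay within the range of the other lines, whose highest value was 0.11. Against wild type the difference at bin 74 was 0.18 and did not pass (adjusted p = 0.0968).

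**Figure D4:**
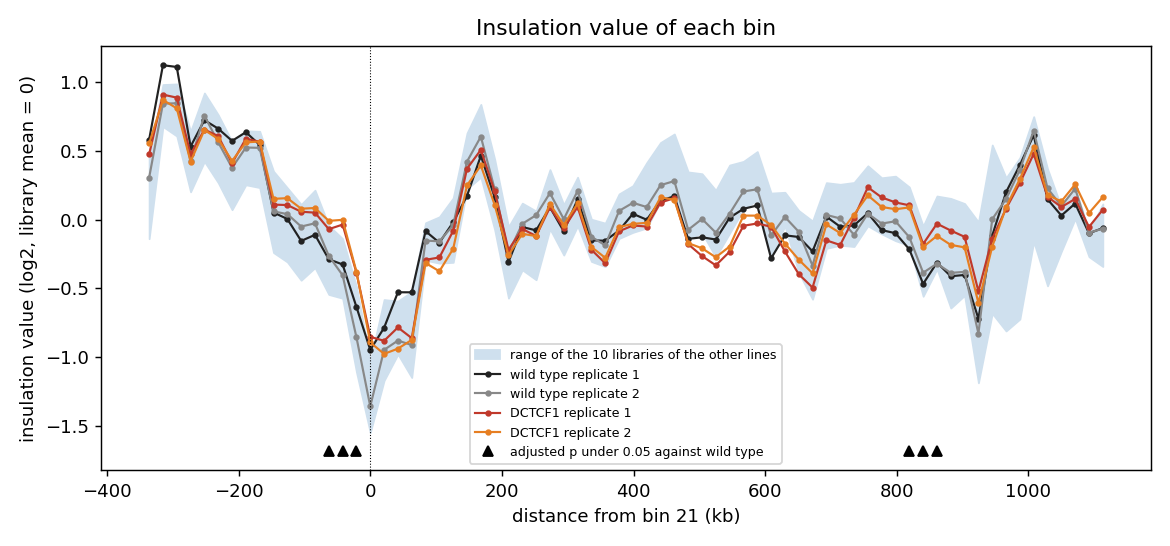
Insulation value of each bin (log2, library mean 0) against its distance from bin 21 in kb, for the 2 wild type and 2 DCTCF1 libraries, with the range of the 10 libraries of the other lines shaded and the 6 called bins marked by triangles. Just left of bin 21 the DCTCF1 libraries lie above both wild type libraries, by 0.35 at bin 19 and 0.36 at bin 20.

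Among the 231 values of a bin with a domain, the change of greatest size lay inside the Shh domain, at bin 50 (29.367 to 29.388 Mb). Its contact value with the rest of the central domain was 29.7 and 28.9 in wild type and 12.9 and 14.1 in DCTCF1, 0.46 times the wild type level. The log2 change was -1.12 ± 0.23 (adjusted p = 0.0171), and 34 of its 37 pairs with central bins were lower and 0 higher. Over all pairs within the central domain 23.7% were lower and 20.5% higher, and over all 2853 pairs 15% and 31.9%. Libraries of the other lines spread from 13.4 (DCTCF4 replicate 2) to 45.0 (DCTCF5 replicate 2) at this bin. DCTCF2 replicate 1 was at 17.2, so a low value of bin 50 was not seen in DCTCF1 alone. Against the mean of the other lines the difference was -0.97 ± 0.18 (adjusted p = 0.00268). Contact of bin 50 with the left and the right domain differed by -0.54 ± 0.14 (adjusted p = 0.053) and -0.41 ± 0.20 (adjusted p = 0.258).

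**Figure D5:**
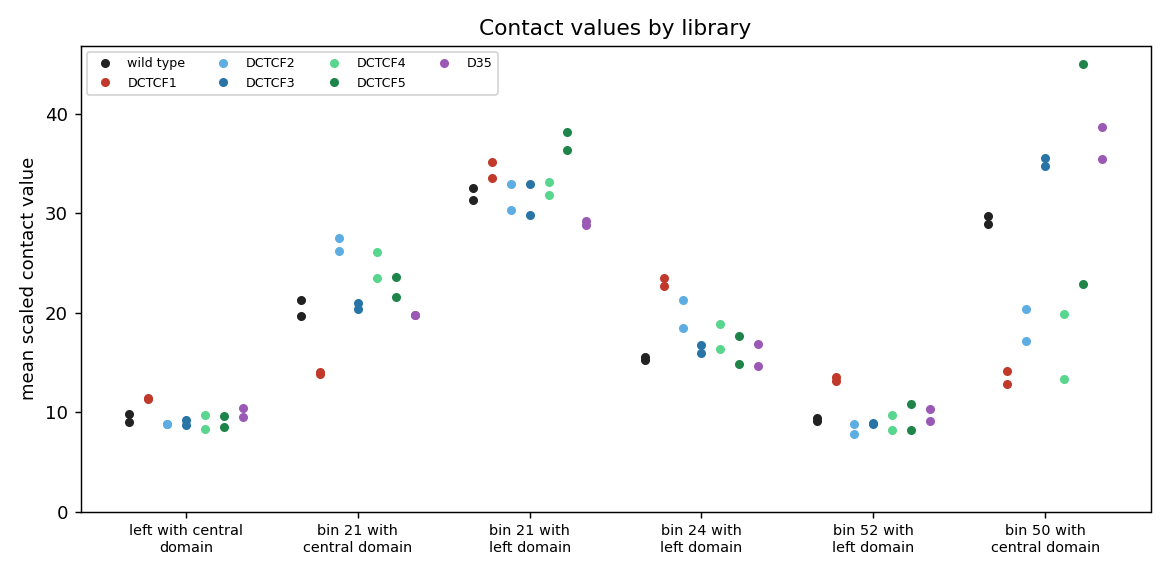
Mean scaled contact value of 6 quantities, 1 point for each of the 14 ESC libraries, coloured by line. DCTCF1 lies below every other library for bin 21 with the central domain (13.8 and 14.0 against at least 19.7) and above every other library for the left with central block and for bins 24 and 52 with the left domain, whereas for bin 50 other lines reach similar values.

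Of 2853 single bin pairs, 0 rose (0%) and 0 fell (0%) in the limma test, with 222 at an unadjusted p under 0.05. Pairs of bin 21 and bin 50 had the smallest p among those lower in DCTCF1. The pair of bin 21 with bin 32 was at 17.9 and 18.9 in wild type and 9.32 and 9.52 in DCTCF1, with 17.6 to 23.0 in the other lines (-0.72, adjusted p = 0.145). The pair of bin 21 with bin 66, the first bin of the right domain, was at 30.8 and 27.7 in wild type and 14.6 and 16.4 in DCTCF1 (-0.75). Bin 50 with bin 59 was at 32.2 and 41.1 in wild type and 12.9 and 9.08 in DCTCF1 (-1.41). Groups did not overlap in any of these pairs, which were chosen for their small p. Such non-overlap was also common among all pairs, with 15% lower and 31.9% higher. Among the higher pairs, bin 24 with bins 0 and 1, which share a value, was at 11.6 and 18.5 in wild type and 26.2 and 37.1 in DCTCF1 (0.89, adjusted p = 0.222). Bin 5 with bin 68 was at 18.3 and 7.50 in wild type and 29.4 and 32.0 in DCTCF1 (1.09, adjusted p = 0.247), within the 16.3 to 36.7 of the other lines.

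All 6 calls among the values of a bin with a domain were lost when either DCTCF1 library was left out, which leaves that group with 1 library assumed to vary like the others. The change of bin 21 with the central domain was then -0.55 or -0.57 (adjusted p = 0.199 and 0.121), and without wild type replicate 2 it was -0.50 (adjusted p = 0.0825). For bin 21 with the right domain the adjusted p was 0.14 without wild type replicate 1. For bins 24, 50 and 52 each of the 4 libraries, left out in turn, ended the call (adjusted p of 0.108 to 0.37). Insulation calls at bins 19 and 20 were likewise lost without either DCTCF1 library or without wild type replicate 2, with changes of 0.25 to 0.37, and those at bins 18, 60, 61 and 62 without any 1 of the 4 libraries.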

How the data were processed

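The authors deposited, for each ESC library, a matrix of contact values, a signal without a stated normalization, and a matrix whose values are a ratio, observed over expected. The build is mm9, per the submitters' processing notes and the file headers, and no source used here names the aligner or the binning software. Division of the deposited signal by the deposited ratio gave 1 expected value per separation (largest relative spread 1.3e-08). From 28 matrices, pairs at least 2 bins apart were scaled to one total per library. Groups of pairs were averaged and log2-transformed. Single pairs, all above 0 in at least 50% of libraries, were taken as log2(value + 4.55), which understates changes of low pairs. All 14 ESC libraries entered 1 fit in limma 3.58.1 (R 4.3.3), with Benjamini-Hochberg adjustment within each kind of feature, a threshold of 0.05, and n = 2 per line. Windows and pairs needed values in at least 50% of cells, a bin and domain at least 5 pairs and a distance class at least 20. Scripts were tested on simulated data. Named always were bins 19 to 22 and all 6 blocks, then up to 10 called features of each kind by smallest p, and the 3 single pairs of smallest p in each direction. Bin 65, the corner pairs and the other domains of bins 24, 50 and 52 were added after values were seen. Domains, features and lists were chosen with earlier results of these data known. Same-numbered libraries of wild type and DCTCF1 share a run year, and the correlation of their deviations across pairs was -0.02. Alternatives included median scaling, the observed over expected matrices, run year, a replicate block, other windows and each library left out.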

Additional observations from a re-analysis of the deposited data

Results flagged for a closer look

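Several changes of DCTCF1 against wild type also differed, in the same direction, from the mean of the other 5 lines, by a limma contrast that uses no wild type library. Both contrasts use the same 2 DCTCF1 libraries, so the second is not separate support. It called 24.3% of insulation bins higher and 28.6% lower. Among bin-to-domain values it called 19.9% higher and 4.76% lower, and among distance classes 33.3% and 11.1%. These differences are given on the log2 scale. Bin 21 was lower by -0.7124 with the central domain, by -0.5846 with the right domain and by -0.7991 in its direction balance. Bin 22 was lower by -0.3766 with the right domain and by -0.5366 in its balance. Bin 50 was lower by -0.9657 with the central domain, with other lines reaching the same level in single libraries. The left domain had more contact with the central domain by 0.314, with bin 24 by 0.437 and with bin 52 by 0.5628, and pairs across bin 21 at 40 to 79 bins were higher by 0.3285. Insulation values were higher by 0.2777 at bin 18, 0.369 at bin 19, 0.442 at bin 20 and 0.1938 at bin 61. At bin 61 both DCTCF1 libraries lay within the range of the other lines, and at bin 18 DCTCF1 replicate 1 did. Adjusted p-values ran from 3.01e-05 for the balance of bin 21 to 0.0138 for bin 22 with the right domain.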

How the results depend on the processing

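The fall in the direction balance of bin 21 was past the threshold in all 12 alternatives (-0.86 to -0.71, adjusted p 0.000327 to 0.0183). Other calls rest on few libraries. Leaving out 1 library at a time gave 0 to 3 calls against 6 in the insulation profile, 0 to 1 against 1 among blocks, 0 to 2 against 6 among bin-to-domain values, 0 to 5 against 1 among distance classes, 1 to 2 against 2 in the balance, and 13 to 37 against 37 for insulation against the other lines. The left with central block then ranged from 0.21 to 0.33. With the replicate number as a block, 0 blocks passed (left with central 0.27, adjusted p = 0.0591), and so did 0 with median scaling (0.12, adjusted p = 0.122). Pairing by number moved no other count of calls by over 1.5 times, and it ended the call of bin 52 with the left domain (0.53, adjusted p = 0.052). Only wild type and DCTCF1 libraries gave 12 insulation calls, 2 distance classes, 12 single pairs and 1 balance call. Windows of 3 bins gave 0 insulation calls against wild type, and 21 against the other lines. The observed over expected matrices gave 10 bin-to-domain calls, 2 higher and 8 lower, and median scaling gave 1 higher and 8 lower. Distance classes had 0 calls with median scaling or with means of log2 values. The balance had 1 call with run year as a covariate and with windows of 5 or 20 bins. With the other 5 lines as control, chosen after the data were seen, there were 57 bin-to-domain calls, 8 distance classes and 31 single pairs. Blocks against the other lines gave 6 calls with observed over expected values, 4 with median scaling and 2 with means of log2 values. There, left with right turned to -0.10 and -0.16, and central with right to -0.10 and -0.15, under the first and second of these. Bin 22 with the right domain was -0.25 with means of log2 values (adjusted p = 0.118), and insulation at bin 60 was 0.23 with bin 65 left out (adjusted p = 0.061). Median scaling moved the median change of all pairs by -0.10. Removing the filter on low values changed nothing, since all 2853 pairs pass it. The causes were not tested. With 2 libraries a group and no stated depth, differences that missed the threshold are not shown to be absent.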
